A study of Ovis aries with 18 samples.

Results

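MicroRNAs of the sheep endometrium, the inner lining of the uterus, were measured by small RNA sequencing in 10 of the 18 libraries of this series. All 10 came from ovariectomized ewes (Ovis aries), which have no ovarian hormones of their own, and every ewe was given progesterone (P4) at 50 mg a day over 14 days. In 5 ewes this was the only agent (P4), and the other 5 (P4+RU486) also received 50 mg of RU486 a day from day 8 to day 14. RU486, or mifepristone, is a progesterone receptor antagonist. Neither group was left untreated, so each library is of progesterone-treated tissue, and 1 library stands for 1 ewe. The endometrium had been dissected by hand and frozen, which leaves epithelium, glands, stroma, vessels and blood cells mixed in each RNA sample.

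The deposited table has 10 columns of values, S01 to S10. These names match no sample label, so 0 of the 10 columns were assigned to a treatment, and P4 was not compared with P4+RU486 here. The results below describe how abundant each microRNA was and how far the 10 ewes spread. With the treatments not told apart, this spread holds both the differences among ewes and any effect of RU486, so each library's value, or the lowest, median and highest library, is given in place of a mean with its error.

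MicroRNAs are short RNAs that guide Argonaute proteins to messenger RNAs and lower the output of their targets. Target choice depends mostly on the seed, a short stretch near the 5′ end, so microRNAs with the same seed form a family with overlapping targets. Each microRNA is cut from a hairpin, and either arm of the hairpin (5p or 3p) can be kept. Many are transcribed in clusters, and several clusters mark cell types, which makes them useful in a tissue whose epithelium and stroma respond differently to progesterone.

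The table lists 761 microRNA rows. Of these, 152 carry a sheep microRNA name. Another 444 carry only the identifier of a predicted locus and the name of a known microRNA with the same seed, and 165 carry an identifier alone. Since microRNAs of different genes can share a seed, a row of the last 2 kinds keeps its identifier here, followed by "with the seed of" the listed microRNA. For the same reason, a microRNA said below to match no row may be listed under another name of its seed.

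The values are normalized CPM, CPM taken over a library size that was adjusted for each library. Between 5276764 (S10) and 12054760 (S05) reads were assigned to listed rows, with a median of 8237494. One read was worth 0.0842 to 0.178 normalized CPM, and 3 reads, the upper limit behind a count of 0, were worth 0.253 to 0.533. From 606 to 664 rows were seen with 1 read or more. These counts are not sequencing depths, and intervals and floors below cover counting error only, since PCR copies were not marked by molecular identifiers.

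A few microRNAs held most of the endometrial reads. The 19 rows with a mean of at least 10000 normalized CPM took 83.0% of all reads, and the 46 rows from 1000 to under 10000 took 13.9%. At the other end, 352 rows averaged under 1 normalized CPM and together took 0.00914%. The 10 most abundant rows held 68.9% to 71.5% of a library's reads (median 69.9%), and the same row led each of the 10 libraries.

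The most abundant row in 10 of 10 libraries was miR-10b, a microRNA encoded within a HOX gene cluster. Its level in S01 to S10 was 253202, 199909, 290070, 229815, 239188, 252551, 249747, 206700, 179312 and 200218 normalized CPM, with a median of 234502. S03 was highest and S09 lowest, 1.62-fold apart. As a share of a library's reads, miR-10b took 20.7% to 26.9%. The HOX-cluster rows together took 23.96% (S08) to 29.45% (S03). The paralog miR-10a, from another HOX cluster, ranged from 22400 (S01) to 42843 (S02) normalized CPM. The 2 paralogs were not in one proportion: the ratio of miR-10b to miR-10a ran from 4.67 in S02, where miR-10a was highest, to 11.3 in S01, where it was lowest.

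The second row was miR-143, known from smooth muscle and other mesenchymal cells, at 97606 to 129146 normalized CPM (median 120140). The third was miR-26a, a broadly expressed microRNA, at 101302 to 136091 (median 111870). Both were steady for their level, with the highest library 1.32 and 1.34 times the lowest. miR-125b, which shares an ancestral cluster with let-7 and miR-99 relatives, ranged more widely, from 42658 (S09) to 74729 (S03).

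Of the remaining rows among the 10, miR-181a and miR-181a-1 had nearly the same values in every library (25775 in S09 to 51056 in S06 for miR-181a). Their reads may therefore be counted in both rows. miR-148a, a microRNA of the miR-148 and miR-152 family, ranged from 19268 to 26392 normalized CPM. miR-199a-3p, typical of fibroblasts and stroma, ranged from 17866 to 29860, and miR-22-3p, which can target the estrogen receptor alpha transcript, from 18750 to 26259. In miR-199a-3p, S01, S03 and S07 stood together at 27905, 28955 and 29860, above the other 7 libraries at 17866 to 23410.

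**Figure D1:**
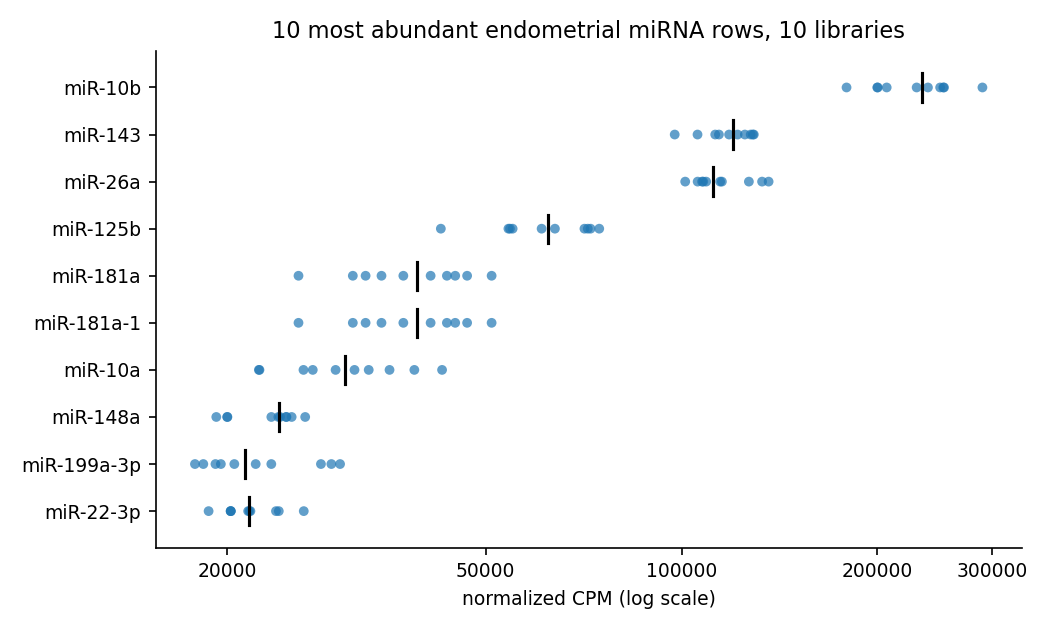
Normalized CPM (x axis, log scale) of the 10 most abundant rows; each point is 1 of the 10 endometrium libraries and each bar the median. miR-10b lies to the right of every other row, at 179312 to 290070, and miR-181a and miR-181a-1 have nearly the same points.

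Relatives of miR-10 and miR-125b formed the largest family list. With miR-99 they had 5 rows and took 32.8% (S08) to 40.2% (S03) of reads. No row matched miR-100, which may be listed under another name of its seed. Row 15_10953, with the seed of miR-99a-5p, spread most among them, from 9139 (S09) to 21266 (S03). Another HOX-cluster microRNA was much scarcer: row 3_26587, with the seed of miR-196a, ranged from 688 (S04) to 1536 (S05) normalized CPM. In S01 to S10 it was at 1336, 821, 1206, 688, 1536, 856, 1322, 785, 955 and 757, a 2.23-fold range.

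The let-7 family, which targets growth-promoting transcripts such as those of HMGA2 and LIN28, took 3.35% (S10) to 5.74% (S05) of reads in 9 rows. Each of the 9 was highest in S05 (5 rows) or S01 (4 rows), and 8 were lowest in S10 (5 rows) or S09 (3 rows). S05 and S01 also had the most reads in listed rows, and S10 and S09 the fewest. The part of depth in this order was not tested. Over all 241 rows with a mean of at least 10 normalized CPM, S05 was highest in 11.2% and S01 in 15.8%, and S10 was lowest in 13.7% and S09 in 24.1%. The most abundant member, let-7a, ranged from 11017 (S10) to 21008 (S01). For let-7i the level in S01 to S10 was 5404, 2929, 4575, 3429, 6026, 3629, 4613, 3223, 2511 and 2464 normalized CPM. S05 was thus 2.45-fold above S10. By share of reads, where no adjusted library size enters, 7 of the 9 rows were highest in S05 and 2 in S01, beside 13.3% and 8.71% of all 241 rows. The low end was scattered on that scale: 4 rows were lowest in S10, 2 in S09 and 1 each in S02, S06 and S07. S09 then had the third highest share of the family, 4.08%.

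Several other broadly expressed families were abundant. The miR-30 family, with 7 rows led by miR-30a-5p (9065 to 15913 normalized CPM), took 2.40% to 3.21% of reads. The rows of miR-23, miR-24 and miR-27, which are transcribed as paralogous clusters, took 2.96% to 3.43%, and miR-27a differed 1.31-fold between its end libraries (13368 to 17457). The miR-17-92 cluster and its paralogs, known from proliferating cells, took 1.74% to 2.41%, led by row 10_3805 with the seed of miR-92a (4926 to 9197). Reads of the miR-29 family, which targets collagen transcripts, made up 0.344% (S07) to 0.618% (S09). On the deposited scale S08 was highest in the 4 rows that averaged 10 normalized CPM or more, and by share in 3 of them, so the lead of S09 rests on miR-29a.

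Rows linked to steroid or hypoxia responses took 14.8% (S05) to 18.6% (S09) of reads, most of it miR-26a. Among them miR-21, which rises in many growing or inflamed tissues, was at 12450 (S10) to 17642 (S01) normalized CPM. The 2 rows with the seed of miR-135a were near each other at 22.6 (S04) to 39.6 (S02). No row matched miR-210, the main hypoxia-induced microRNA, or miR-135b. The miR-148 and miR-152 family took 1.94% (S01) to 2.68% (S02).

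The miR-132 and miR-212 pair, which is induced by cAMP signalling, took the smallest share of reads among the family lists, 0.000778% (S08) to 0.00183% (S07). Row 11_5529, with the seed of miR-212, was at 7.69, 15.2, 8.50, 8.53, 8.84, 11.8, 17.8, 7.23, 9.52 and 7.11 normalized CPM in S01 to S10. S07 and S02 were highest and the other 8 libraries lay at 7.11 to 11.8.

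The 4 rows of the miR-181 family took 6.47% (S09) to 9.98% (S10) of reads. Of this, miR-181a and miR-181a-1 each took 3.102% (S09) to 4.788% (S10). Their reads may be counted in both rows, so the family share may be too high. miR-221, a microRNA of vascular and proliferating cells, ranged 2.13-fold, from 623 (S10) to 1327 (S01). S01 stood above the other 9 libraries in this row, which reached 1022.

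The tissue label was checked against microRNAs that mark cell types. Markers of epithelium and of stroma, the 2 main compartments of endometrium, were present in all 10 libraries. In a bulk sample fewer cells of a type and less RNA per cell cannot be told apart. Epithelial markers, the miR-200 family and a row with the seed of miR-205, took 0.360% (S07) to 0.574% (S10) of reads in 6 rows. No row matched miR-141 or miR-429, but a predicted locus may be listed under another microRNA of the same seed. Stromal markers took 1.99% (S06) to 3.098% (S07) in 3 rows.

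The miR-200 family represses the ZEB transcription factors and so keeps epithelial identity. Its leading row, 3_27218 with the seed of miR-200a, was at 1357, 1812, 1378, 1778, 1457, 2332, 1462, 2098, 1680.2 and 1693 normalized CPM in S01 to S10. miR-200a itself ranged from 1149 (S07) to 1829 (S06) and miR-200b from 482 (S07) to 948 (S04). As a share of reads the family took 0.336%, 0.487%, 0.347%, 0.507%, 0.401%, 0.516%, 0.336%, 0.504%, 0.516% and 0.516% in S01 to S10, so that S01, S07 and S03 were lowest. The stromal markers were miR-199a, miR-152 and a row with the seed of miR-214. They took 2.76%, 2.21%, 2.85%, 2.45%, 2.45%, 1.99%, 3.098%, 2.10%, 2.35% and 2.12%. Here S01, S07 and S03 were the highest 3 libraries.

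Smooth muscle markers were abundant, at 11.1% to 13.2% of reads, nearly all of it miR-143. Row 5_29566, with the seed of miR-145, the cluster partner of miR-143, was at 3903 to 5154 normalized CPM. The microRNAs more restricted to muscle were low: miR-133 was at 93.1 to 175, and the 2 rows with the seed of miR-1 had identical values of 1.41 to 4.04. The part of muscle of the uterine wall in the miR-143 level was not tested.

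Blood-cell microRNAs were also found in every library. Leukocyte markers took 0.354% (S03) to 0.627% (S09) of reads. Among them, miR-150 of mature lymphocytes was at 588, 659, 558, 751, 582, 837, 694, 1008, 1072 and 1263 normalized CPM in S01 to S10, so that S08, S09 and S10 were highest. These libraries also had the fewest reads in listed rows, and the part of depth was not tested. Row 1_2861, with the seed of miR-155 of activated lymphocytes and macrophages, was at 90.1 (S10) to 190.4 (S01), and S10, highest for miR-150, was its lowest library. Row 11_5329, with the seed of miR-142b, a hematopoietic microRNA, ranged from 791 (S03) to 1755 (S06). The only erythroid marker with a row was 26_23579, with the seed of miR-486. It was at 1414, 2047, 1125, 2768, 1212, 2615, 1257, 2078, 1484 and 1977 normalized CPM in S01 to S10, highest in S04 and S06. No row matched miR-451, miR-144 or miR-223, the defining erythroid and myeloid markers, and none matched the endothelial miR-126. A row may be listed under another name.

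Markers of liver or plasma took the smallest share of reads among the cell type lists with a row, 0.00846% to 0.0129%. No row matched miR-122, the defining liver microRNA, or miR-192. In this list miR-194, which is also epithelial, was at 80.9 to 103 normalized CPM, and a row sharing its seed with miR-885 (19_14926) at 3.87 (S05) to 21.1 (S04). Neuronal or neuroendocrine markers took 0.0800% to 0.240%, nearly all of it in 2 rows with the seed of miR-9-5p and identical values, from 421 (S03) to 1329 (S06) normalized CPM. With identical rows counted once the median share of this list was 0.0801% in place of 0.158%. No row matched miR-124.

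**Figure D2:**
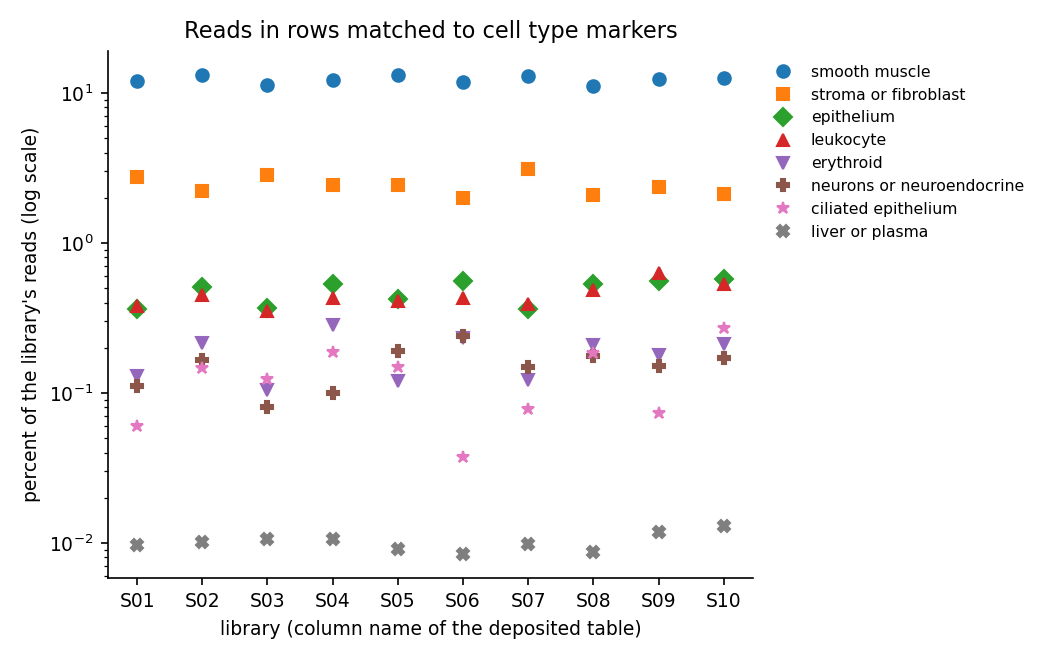
Percent of a library's reads (y axis, log scale) in rows matched to the markers of each cell type, for the 10 endometrium libraries (x axis, in order of name). Smooth muscle markers are highest in every library at 11.1% to 13.2%, and ciliated-epithelium markers spread most, from 0.0372% in S06 to 0.271% in S10.

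Ciliated epithelium was the marker list with the widest spread. Multiciliated cells line parts of the uterine epithelium, and miR-34b, miR-34c and the miR-449 microRNAs promote the formation of cilia. The 4 rows matched to this list took 0.0372% (S06) to 0.271% (S10) of reads, a 7.27-fold range, against 1.59-fold for epithelial markers as a whole. No row matched miR-449a, miR-449b or miR-449c, but a predicted locus may be listed under another microRNA of the same seed.

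Most of that range lay in a pair of rows with neighbouring identifiers. Row 15_10278, with the seed of miR-34b, was at 441, 1175, 1069, 1524, 1235, 257, 609, 1517, 413 and 2174 normalized CPM in S01 to S10. Row 15_10275, with the seed of miR-34c-3p, was at 53.3, 109, 108, 161, 110, 34.4, 63.3, 179, 42.9 and 272. In both rows S10 was highest and S01, S06, S07 and S09 were the lowest 4 libraries. The end libraries differed 8.47-fold in the first and 7.91-fold in the second. Without S06 the first range fell to 5.26-fold, and without S10 the second fell to 5.21-fold. The ratio of the first row to the second stayed within 7.47 to 11.2 over the 10 libraries, so the pair kept its proportion while its level changed.

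The table has 2 other rows with the seed of miR-34b. Which microRNA each of them comes from was not tested. Row 12_6472 ranged from 81.7 (S10) to 167 (S05), and its lowest library was the highest of the pair. Row 16_11384, which averaged under 10 normalized CPM, was at 0.81, 3.75, 13.3, 31.1, 0.93, 0.94, 1.26, 3.35, 5.93 and 9.42 in S01 to S10. Its lowest value, in S01, rests on 8 reads (95% Poisson interval 0.35 to 1.6) and its highest, in S04, on 259 reads (27.4 to 35.2). That is a 38.4-fold range, or 16.4-fold without S04. As in the pair, S01, S06 and S07 were among its lowest 4 libraries and S04 and S10 among its highest 3, but S05 was low and S03 high. Rows 12_6472 and 16_11384 were named after their values were seen.

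Across the profile, most microRNAs differed modestly among the 10 ewes. The spread was measured in the 241 rows (31.7%) with a mean of at least 10 normalized CPM, which held 99.9% of reads in each library. In the median row the highest library was 1.84 times the lowest, and the quartiles were 1.52 and 2.22. The ratio reached 2 in 92 rows (38.2%), 3 in 25 rows (10.4%) and 4 in 14 rows (5.81%). The 95% Poisson intervals of the highest and lowest library did not overlap in 240 of the 241 rows, the exception being row 11_5825 with the seed of miR-378. These intervals cover counting error at the extremes of 10 libraries and say nothing of the other errors of a library. Scarcer rows spread more, with a median ratio of 2.07 at 10 to under 100 normalized CPM and 1.62 at 10000 and above.

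**Figure D3:**
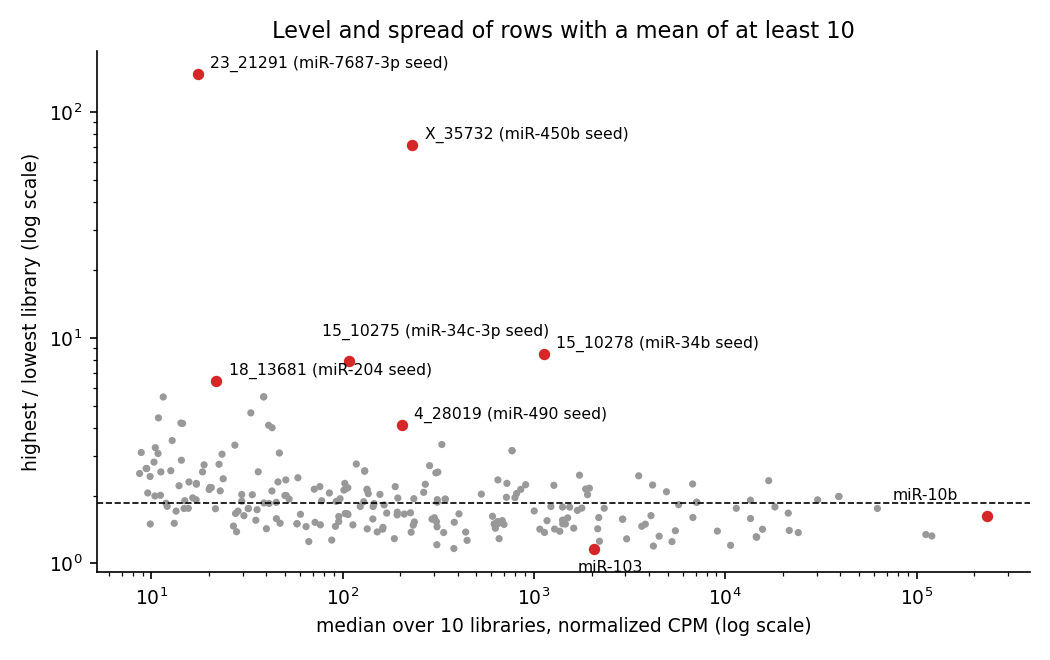
Ratio of the highest to the lowest library (y axis, log scale) against the median of the 10 endometrium libraries (x axis, log scale) for the 241 rows with a mean of at least 10 normalized CPM; the dashed line is the median ratio, 1.84. Named rows are red, and 23_21291 and X_35732 stand far above all others.

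The steadiest row with a mean of at least 100 was miR-103, a broadly expressed microRNA of the miR-103 and miR-107 family that acts on metabolic genes. It ranged from 1945 (S03) to 2260.5 (S05) normalized CPM, 1.16-fold. The SD of its log2(value + 1) was 0.0701, the lowest of the 145 rows. Row X_36407, with the seed of miR-361, followed at 345 to 401, and row 1_2197, with the seed of miR-186, was steady at a high level of 9439 to 11354. The adjusted library sizes affect this order: the largest ratio of miR-103 under any other scaling was 1.41. The steadiest rows were named after their values were seen.

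The 5 rows with a mean of at least 100 that spread most were X_35732, the miR-34 pair above, X_35370 and 4_28019. Row X_35370, with the seed of let-7f, ranged from 202.5 (S09) to 682 (S05) and followed the let-7 rows named for sheep in having S05 and S01 highest. In row 4_28019, with the seed of miR-490, a microRNA hosted in the CHRM2 gene of smooth muscle, S07 was at 529.9 and the other 9 libraries at 129 to 283. Its range of 4.10-fold fell to 2.19-fold without S07.

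Row X_35732, with the seed of miR-450b, had the widest range of all rows with a mean of at least 100. Its level in S01 to S10 was 85.2, 6.57, 220.4, 242, 245, 151, 469, 292, 339 and 165 normalized CPM. S02 stood alone: its value rests on 42 reads (95% Poisson interval 4.73 to 8.88), and the median of the other 9 libraries, 242, was 36.8 times higher. The range was 71.4-fold with S02 and 5.51-fold without it.

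In mammals this X-linked cluster also holds miR-424, miR-503 and miR-542. S02 was the lowest library in 3 of the 4 rows matched to it, but by much less in the other 2 than in X_35732. Row X_35728, with the seed of miR-450a, was at 93.2 in S02 and at 117 to 239.9 in the others. Row X_35730, with the same seed, had nearly the same range, so reads may be counted in both rows. Row X_35725, with the seed of miR-542-3p, was at 84.3 in S02 and at 77.3 to 149.5 in the others. The ratio of X_35728 to X_35725 stayed within 1.106 to 1.75. The ratio of X_35732 to X_35728, in contrast, was 0.0705 in S02, 0.665 in S01 and 1.114 to 2.41 in the other 8 libraries. In all 4 rows S07 was highest. Together the 4 rows took 0.0290% (S02) to 0.106% (S07) of reads. No row matched miR-424, miR-322 or miR-503.

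A second row fell in a single library. Row 23_21291, with the seed of miR-7687-3p, was at 9.31 to 26.4 normalized CPM in 9 libraries and at 0.18 in S10. The S10 value is 1 read, with a 95% Poisson interval of 0.0045 to 0.99, while the lowest of the others, in S01, rests on 92 reads. Its range was 147-fold with S10 and 2.84-fold without it. This row was named after its values were seen.

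Row 18_13681, with the seed of miR-204, was also named after its values were seen, because its libraries fell apart differently. S03, S05 and S08 were at 82.2, 76.6 and 60.5 normalized CPM, and the other 7 were at 12.8 to 25.9, so the third highest was 2.33 times the fourth. The abundant row with the same seed, 2_15454, ranged from 2865 (S03) to 4277 (S01), 1.49-fold, and did not show these 3 libraries apart. miR-204 is known from epithelia such as that of the retina and the choroid plexus.

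**Figure D4:**
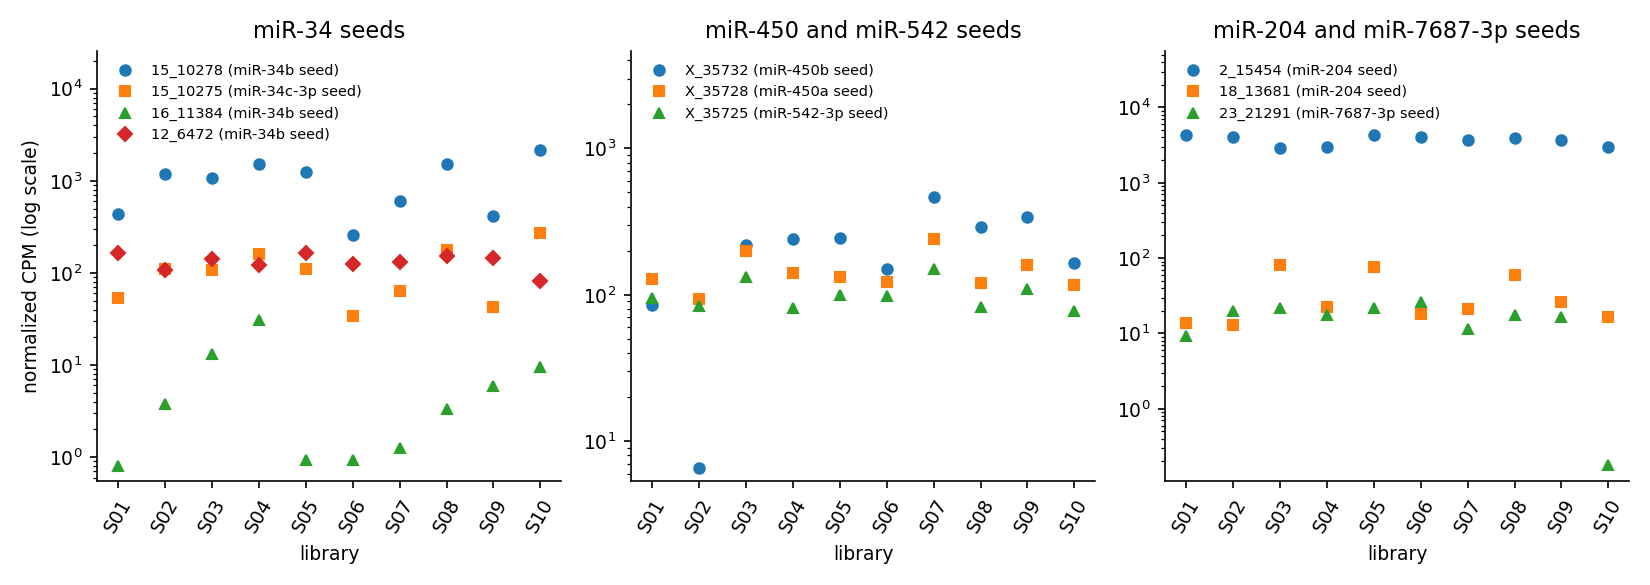
Normalized CPM (y axes, log scale) in the 10 endometrium libraries (x axes, in order of name) of rows with the seeds of miR-34 (left), miR-450 and miR-542 (middle), and miR-204 and miR-7687-3p (right). X_35732 in S02 (6.57) and 23_21291 in S10 (0.18) lie far below the other rows of their panels, and 15_10278 and 15_10275 keep their distance.

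Rows matched to the miR-183 cluster, known from sensory cells and some epithelia, took only 0.0300% (S07) to 0.0627% (S06) of reads. Their leading row, 5_29334 with the seed of miR-96, ranged from 199.5 (S09) to 448 (S06). It was matched by seed alone, and its identifier is not near JH923873.1_37347 and JH923873.1_37351, which have the seed of miR-183. Rows JH923873.1_37345 and JH923873.1_37349, which also have the seed of miR-96, do lie near them by identifier, at a mean of 8.39 normalized CPM each. Whether 5_29334 belongs to the cluster was not tested. The 2 rows with the seed of miR-183 had identical values, from 18.6 (S02) to 101.9 (S06), a 5.48-fold range. They were above 70 in S06, S08 and S09 (101.9, 73.7 and 77.4) and at 18.6 to 43.6 in the other 7 libraries. No row matched miR-182.

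MicroRNAs of the imprinted DLK1-DIO3 region, which are expressed from the maternal chromosome in large polycistronic clusters, were numerous but scarce. The 99 rows named for sheep in this region included 40 with a mean of at least 10 normalized CPM, and the other 59 were below it. The 40 took 0.584% (S06) to 0.891% (S07) of reads, a 1.53-fold range. miR-411a-5p led them at 3291 (S09) to 5362 (S07), followed by miR-127 at 279 to 383. The median row differed 1.97-fold between its end libraries, beside 1.84-fold over all 241 rows.

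Which library was highest in this region depended on the scale. On the deposited scale, S07 was highest in 17 and S01 in 10 of these 40 rows, while S08 was lowest in 14 and S06 in 9. Over all 241 rows, S07 was highest in 20.3% and S01 in 15.8%, and S08 was lowest in 9.96% and S06 in 6.22%. By share of reads, with 1 row more that matched by seed, S09 was highest in 19 of 41 and S06 lowest in 24. Over all 241 rows S09 was then highest in 29.5% and S06 lowest in 17.0%, so S09, lowest in 24.1% on the deposited scale, had changed ends. The values of S09 summed to 830876 normalized CPM, the lowest of the 10 libraries, and those of S06 to 1117676, the highest.

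Individual members of the region did not all follow its total. miR-376c-3p was at 112 in S05 and 69.8 in S01, and at 27.4 to 54.4 in the other 8 libraries, a 4.10-fold range. miR-665-3p was highest in S09 (217) and lowest in S05 (78.6). Both differed more than miR-127, whose end libraries were 1.37-fold apart.

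The arm that was kept varied little in most hairpins, nearly all of them from this region. Both arms were listed for 47 hairpins named for sheep, of which 31 had a summed mean of at least 10 normalized CPM. Of these 31, the 3p arm was higher in every library in 19 and the 5p arm in 9. In 24 of them over 90% of reads came from 1 arm in the median library. The share of the 5p arm ranged over 2.32 percentage points among libraries in the median hairpin. For miR-30a, which lies outside the region, 98.0% to 98.7% of reads came from the 5p arm, and for miR-411a 99.0% to 99.5%.

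The higher arm differed between libraries in the remaining 3 hairpins. The 5p arm of miR-493 gave 47.5% to 59.1% of reads, that of miR-379 40.7% to 61.4% and that of miR-382 33.0% to 53.1%. miR-409 kept more of its 3p arm in every library, with 26.4% to 41.1% on the 5p arm. In miR-382 both arms together had as few as 81 reads in a library, fewer than in the other hairpins of this paragraph.

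**Figure D5:**
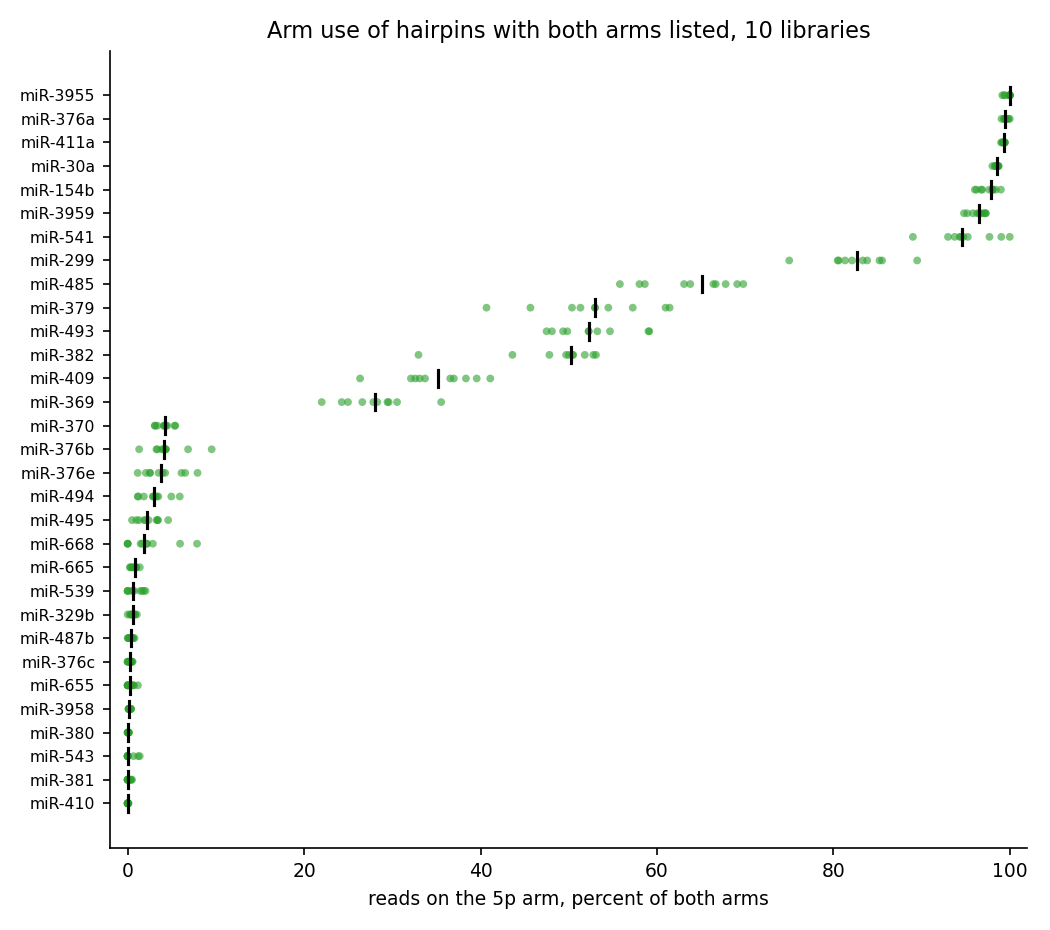
Reads on the 5p arm as a percent of both arms (x axis) for the 31 hairpins with both arms listed and a summed mean of at least 10 normalized CPM; each point is 1 endometrium library and each bar the median. Most hairpins lie near 0% or 100%, and miR-379, miR-493 and miR-382 lie on both sides of 50%.

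Rows without any listed seed were few among the abundant ones. There were 15 of them with a mean of at least 10 normalized CPM, and together such rows took 0.199% to 0.301% of reads. Row 14_8843 was the most abundant, at 1265 (S05) to 1813 (S04). Row 14_9394 stood out in 1 library, at 91.5 in S06 and at 19.7 to 41.1 in the other 9. The share of rows with a sheep name was 85.4% to 86.8%.

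Some rows cannot be told apart in this table. In 34 sets, holding 72 rows, the values were identical in all 10 libraries, and 7 of the sets, with 14 rows, had a mean of at least 10 normalized CPM. They include pairs with the seeds of miR-9-5p, miR-24-3p, miR-29b and miR-183. Such pairs add the same reads to a list more than once, and near-identical copies like miR-181a and miR-181a-1 do the same.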

How the data were processed

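Endometrial RNA was extracted with TRIzol and made into Illumina TruSeq small RNA libraries, per the labels' protocols. Per the submitters' processing notes, adapters were trimmed with cutadapt 1.11, the genome build was Oar_v3.1, and edgeR (version not given) was used; for the aligner, locus predictor and read filters, no name is given in the sources used here. The deposited values are the authors' normalized CPM, entered here as a score since no column could be tied to a sample. Their sums per library, 830876 to 1117676, show an adjusted library size. In each column 100% of values were whole multiples of 1 read (tolerance 0.1 read), which gave the reads per row. These reads, 5276764 to 12054760 per library, set the precision.

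Group tests that had been planned (a model across rows, exact permutation tests between treatments) were not run, because no column was assigned to a treatment. The authors' fold and FDR columns and the vesicle table were not used. In their place, with Python 3.11.15 (numpy 2.4.6, pandas 2.3.3, scipy 1.17.1), the lowest, median and highest library and their ratio were computed for rows averaging 10 normalized CPM or more, beside shares of all listed reads. Exact Poisson intervals were at 95%. Spread was ranked by the SD of log2(value + 1) in rows averaging 100 or more, and correlations and principal components used the same scale. The recovery of reads and the ranking by spread were tested on simulated data, and the correlations and components were not.

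Rows were matched to lists by sheep name or seed name. The lists were the families let-7, miR-148/152, miR-181, miR-200, miR-29 and miR-30, the miR-10/99/100/125, miR-183, miR-17-92, miR-23/24/27, miR-424/503/450/542, miR-132/212, miR-221/222, HOX and DLK1-DIO3 groups, microRNAs linked to steroids or hypoxia, and the cell type markers. Named rows were the 10 most abundant, each list's leading row and the 5 of largest spread; exceptions are stated. Members and lists were chosen with earlier results of these data known. Alternatives were other pseudocounts, filters, scalings, merged identical rows and each library left out. No miRNA sequences were used here.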

Additional observations from a re-analysis of the deposited data

Results flagged for a closer look

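With the treatments not told apart, the 10 libraries were taken as a single set, and 64 row levels and list shares were checked for 1 library lying apart from the rest. In 4 of them a library did. Chance alone marks about 5% of sets of values, but this share cannot be read against the 4, since some rows were named for their spread or after their values were seen and some lists share rows. Row 18_13295, with the seed of miR-342, was at 2601.7 normalized CPM in S09, above the next library at 2328.2, although its whole range was only 1.25-fold. Row 4_28019, with the seed of miR-490, was at 529.87 in S07, above the next library at 283.16. Rows matched to the miR-183 cluster, led by 5_29334, took 0.0627% of reads in S06, above the next library at 0.0466%. The HOX-cluster rows took 29.45% of reads in S03, above the next library at 26.61%, nearly all of it miR-10b.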

How the results depend on the processing

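The number of rows in which the highest library was at least 2 times the lowest depended most on the filter: it was 92 at a mean of at least 10 normalized CPM, 592 with no filter and 46 at a mean of at least 50. Rows with 0 reads in a library were counted among the 592 whatever their level. Only 476 of the 761 rows had a read in every library. At a mean of at least 10, leaving out each library in turn gave 74 to 89 rows with a ratio of at least 2. The median ratio was then 1.69 to 1.83 (1.84 with all 10), and the 10 most abundant rows held a share of 69.8% to 70.0%. A row's ratio can only stay or fall when a library is left out. Lower ratios here and in the row ratios below were thus largely fixed in advance. Library totals or median-of-ratios factors in place of the authors' scaling, and merged identical rows, moved neither this count, the median ratio nor the share by more than 1.5 times. Only rows with exactly equal values were merged, so miR-181a and miR-181a-1 both stayed in, and their possible double counting was not tested. The share is taken from reads, so scaling could alter it only through which 10 rows were most abundant. The other pseudocounts (0.5 and 5) enter none of these values and could not move them. They do enter the ranking by spread, where the same 5 rows led with either. Rows with at least 3 reads numbered 518.5 in the median library, against 644.5 with at least 1. Of the 410 row ratios recomputed without 1 library, 6 moved by more than 1.5 times, and the values of each are given beside the row. Without X_35732 and 23_21291, an alternative chosen after seeing the data, the median share of the miR-424, miR-503, miR-450 and miR-542 list was 0.0345% in place of 0.0609%. The planned tests between treatments and their alternatives (count models, a depth covariate, no mean trend) were not run, since no column was assigned to a treatment. No paired analysis was possible because the columns carry no replicate number of a treatment. Rows near 1 read are limited by depth.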

Other observations

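The libraries were alike across rows: the median correlation of a library with the other 9, over the 241 rows on the log2(value + 1) scale, was 0.986 (S10) to 0.992 (S04). The points share the authors' scaling and the very wide range of levels among rows. The first principal component of these rows held 28.9% of the variance and the second 15.5%. Scores on the first component in S01 to S10 were -3.55, 2.92, -2.36, 1.57, -4.10, 1.24, -3.08, 1.29, 1.88 and 4.18, so that 4 libraries lay below 0 and 6 above.

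Rows that weighed toward the negative side included X_35370 with the seed of let-7f, let-7i, miR-376c-3p, miR-382-5p and 18_13681. Rows toward the positive side included 26_23579 with the seed of miR-486, miR-150, which marks lymphocytes, 15_10275 with the seed of miR-34c-3p, and 11_4449 with the seed of miR-423-3p, at 1131 (S05) to 2281 (S10) normalized CPM.

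Reads in listed rows were 10725869, 6119818, 9894863, 8148914, 12054760, 8326074, 9014152, 5656983, 5325724 and 5276764 in S01 to S10, so the 4 libraries below 0 (S01, S03, S05 and S07) were the 4 with most reads. The part of depth in these scores was not tested, and neither component was compared with treatment. With no filter on the mean, S08 joined the 4 libraries below 0.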
